A study of Homo sapiens with 8 samples.

Results

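The genes described here are 10 contractile and actin-binding genes, TAGLN, MYL9, TPM1, TPM2, TPM4, CNN1, CNN2, CSRP1, ACTN1 and VCL, out of 31710 genes in the read count table. They were taken by their symbols, each of which named 1 row. They were chosen by their measured response to sertraline, as actin cytoskeleton genes seen to fall more in Huh7 than in Hep3B, together with related genes, so their sertraline values are given as a description, with no test. RNA was read from Huh7 and Hep3B, 2 established human liver cancer cell lines, as 8 poly(A)-selected libraries, 1 for each treatment of each line. Cells were given 10 days of XL413 and then 24 hours of sertraline, sertraline alone, XL413 alone, or no drug (control). XL413 is an inhibitor of CDC7, which is needed to fire replication origins, and the labels give senescence as the aim of the pretreatment. Sertraline, an antidepressant, acts on serotonin reuptake. The labels state these times once, for pretreated cells, and cells given 1 drug were taken to have had it for as long. The sources used here do not give doses or whether the 4 libraries of each line had separate cultures. All 10 genes passed the filter on low counts, which left 16972 genes to test.

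SRF is a transcription factor that binds a short DNA element called the CArG box. Together with its cofactors of the MRTF family it switches on genes of the actin cytoskeleton. MRTF proteins are held by unpolymerized actin monomers and move to the nucleus when monomers are built into filaments, so the state of actin feeds back on these genes. Many of the genes are best known from smooth muscle, and in liver they are known from hepatic stellate cells, which contract and form scar tissue. In epithelial and tumor cells their products belong to stress fibers and focal adhesions.

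The 2 lines carried hepatocyte markers. ALB, serum albumin, had between 5735 and 8219 CPM (read counts scaled to library size with the TMM method) in Huh7 and between 15463 and 21887 CPM in Hep3B, and HNF4A, a liver transcription factor, had between 306 and 407 CPM over the 8 libraries. Of 6 smooth muscle markers measured, MYH11, DES, LMOD1 and ACTG2 stayed under 1 CPM in every library, and the summed level of 79.3 to 216 CPM was nearly all SMTN. Total counts ran from 20275392 reads, in Hep3B given XL413, to 30842770 reads, in Hep3B given both drugs. In RNA from whole cultures, fewer cells of a type and less RNA per cell cannot be told apart.

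Promoter sequence from RefSeq (GRCh38.p14), 250 bases before each start site to 50 after it, was matched for 8 of the 10 genes, with 16 promoters in all. Motifs were searched only in the 250 bases before each start site. None was matched for TAGLN and MYL9. A CArG box, written here as CC, then 6 bases that are each A or T, then GG, was searched on both strands and was found in 3 of the 16 promoters, against 1.16% of the 35116 human promoters in the same table. The stretches around these boxes are shown because the CArG box is the element that SRF is known to bind, with the box in capitals and the sequence 5′ to 3′ on the gene's strand. The box begins 171 bases before a start site of ACTN1 (GRCh38.p14, chr14:68977668-68977797, minus strand), 89 bases before that of CNN2 (chr19:1026459-1026580, plus strand) and 173 bases before a start site of TPM4 (chr19:16067307-16067434, plus strand).
ACTN1: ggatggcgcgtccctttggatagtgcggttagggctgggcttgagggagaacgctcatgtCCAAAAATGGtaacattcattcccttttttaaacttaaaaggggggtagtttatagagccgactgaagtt
CNN2: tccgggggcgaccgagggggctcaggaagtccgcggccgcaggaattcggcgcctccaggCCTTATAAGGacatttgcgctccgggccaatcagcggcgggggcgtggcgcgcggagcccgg
TPM4: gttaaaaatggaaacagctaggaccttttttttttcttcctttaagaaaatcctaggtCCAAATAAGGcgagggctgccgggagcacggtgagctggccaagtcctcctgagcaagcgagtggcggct
With 1 mismatch allowed, 5 of the 16 promoters and 16.8% of all promoters held a match. GGAATG, the core of the site bound by TEAD factors, also searched on both strands, was found in 1 promoter each of ACTN1, CSRP1 and VCL, and in 11.9% of all promoters. A match is a stretch of letters and was not measured as a binding site here.

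In both lines each of the 10 genes was lower in the sertraline library than in the control, and lower after XL413 then sertraline than after XL413, and in Huh7 the difference was larger for most of them. In Hep3B the log2 difference of TPM2 without XL413 was smaller than the half-width from read counting alone, 0.20. That of CNN1 in Hep3B was smaller too, both without XL413 (half-width 0.66) and with it (0.78). TAGLN, a small calponin-related protein also called SM22 that binds actin filaments (GRCh38 chromosome 11, 117199321 to 117204782), had 55.0 CPM after XL413 then sertraline, 11.1 CPM after sertraline, 655 CPM after XL413 and 313 CPM in the control of Huh7. In Hep3B, TAGLN had 8.96 CPM after XL413 then sertraline, 13.7 CPM after sertraline, 27.1 CPM after XL413 and 47.9 CPM in the control. The highest TAGLN library of Huh7 stood 58.8 times above the lowest, and that of Hep3B 5.35 times. Exons of TAGLN overlap those of PCSK7 on the opposite strand, and the strand setting of the counting is not known.

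The other relatives of TAGLN among the genes are the calponins, which bind actin filaments and in the case of CNN1 mark differentiated smooth muscle. CNN1 (chromosome 19, 11538717 to 11550323) was scarce, with 6.51 CPM after XL413 then sertraline, 1.501 CPM after sertraline, 37.8 CPM after XL413 and 19.9 CPM in the control of Huh7. In Hep3B, CNN1 had 0.856, 1.02, 1.18 and 1.84 CPM after XL413 then sertraline, sertraline, XL413 and no drug, which rest on 28, 29, 25 and 52 reads. CNN2, the widely expressed calponin (chromosome 19, 1026581 to 1039068), had 245 CPM after XL413 then sertraline, 233 CPM after sertraline, 707 CPM after XL413 and 630.0 CPM in the control of Huh7. In CNN2 the libraries of Huh7 thus fell into a low pair with sertraline and a high pair without it. In Hep3B, CNN2 had 287 CPM after XL413 then sertraline, 213 CPM after sertraline, 392 CPM after XL413 and 303 CPM in the control, so that the library given both drugs and the control lay close together.

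MYL9, a regulatory light chain whose phosphorylation drives contraction by non-muscle and smooth muscle myosin (chromosome 20, 36541484 to 36551447), had 28.0 CPM after XL413 then sertraline, 12.3 CPM after sertraline, 157 CPM after XL413 and 108 CPM in the control of Huh7. In Hep3B, MYL9 had 27.5 CPM after XL413 then sertraline, 32.2 CPM after sertraline, 52.3 CPM after XL413 and 53.9 CPM in the control. Without sertraline MYL9 was higher in Huh7 than in Hep3B, and with sertraline alone it was lower in Huh7.

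Tropomyosins are coiled-coil proteins that lie along actin filaments and govern access of myosin and other proteins to them. TPM1 (chromosome 15, 63042632 to 63071915) had 89.8 CPM after XL413 then sertraline, 67.3 CPM after sertraline, 199 CPM after XL413 and 151 CPM in the control of Huh7. In Hep3B, TPM1 had 75.5 CPM after XL413 then sertraline, 63.4 CPM after sertraline, 125 CPM after XL413 and 168 CPM in the control. TPM1 was the tropomyosin with the most similar values in the lines. TPM2 (chromosome 9, 35681992 to 35691020) had 141 CPM after XL413 then sertraline, 86.2 CPM after sertraline, 492 CPM after XL413 and 313 CPM in the control of Huh7. In Hep3B, TPM2 had 8.10 CPM after XL413 then sertraline, 13.5 CPM after sertraline, 10.6 CPM after XL413 and 14.9 CPM in the control. All Huh7 libraries lay far above all Hep3B libraries for TPM2, and in Hep3B the libraries with and without sertraline overlapped. TPM4 (chromosome 19, 16067021 to 16103005) had 359.6 CPM after XL413 then sertraline, 240.1 CPM after sertraline, 889 CPM after XL413 and 733 CPM in the control of Huh7. In Hep3B, TPM4 had 227 CPM after XL413 then sertraline, 193 CPM after sertraline, 334 CPM after XL413 and 328 CPM in the control. Tropomyosin genes are close relatives, TPM1 exons overlap the antisense gene TPM1-AS, and the files do not show how reads matching several genes were counted.

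CSRP1, ACTN1 and VCL tie filaments together or to the membrane. CSRP1, a LIM domain protein that binds alpha-actinin (chromosome 1, 201483530 to 201509456), had 129 CPM after XL413 then sertraline, 83.4 CPM after sertraline, 503 CPM after XL413 and 357 CPM in the control of Huh7. In Hep3B, CSRP1 had 50.4 CPM after XL413 then sertraline, 48.1 CPM after sertraline, 65.7 CPM after XL413 and 71.2 CPM in the control. For CSRP1 the lowest Huh7 library stood above the highest Hep3B library. ACTN1, an alpha-actinin that crosslinks filaments (chromosome 14, 68874143 to 68979440), had 193 CPM after XL413 then sertraline, 171 CPM after sertraline, 336 CPM after XL413 and 224 CPM in the control of Huh7. In Hep3B, ACTN1 had 194 CPM after XL413 then sertraline, 200.2 CPM after sertraline, 252 CPM after XL413 and 255 CPM in the control. ACTN1 moved least of the 10 genes across the 4 libraries of each line. VCL, vinculin, which couples integrin adhesions and cell junctions to actin (chromosome 10, 73995193 to 74121363), had 243 CPM after XL413 then sertraline, 166 CPM after sertraline, 549 CPM after XL413 and 384 CPM in the control of Huh7. In Hep3B, VCL had 155 CPM after XL413 then sertraline, 117 CPM after sertraline, 176 CPM after XL413 and 165 CPM in the control. Exons of VCL overlap those of AP3M1 on the opposite strand, and exons of ACTN1 overlap the processed pseudogene HMGN1P3 on the same strand.

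**Figure D1:**
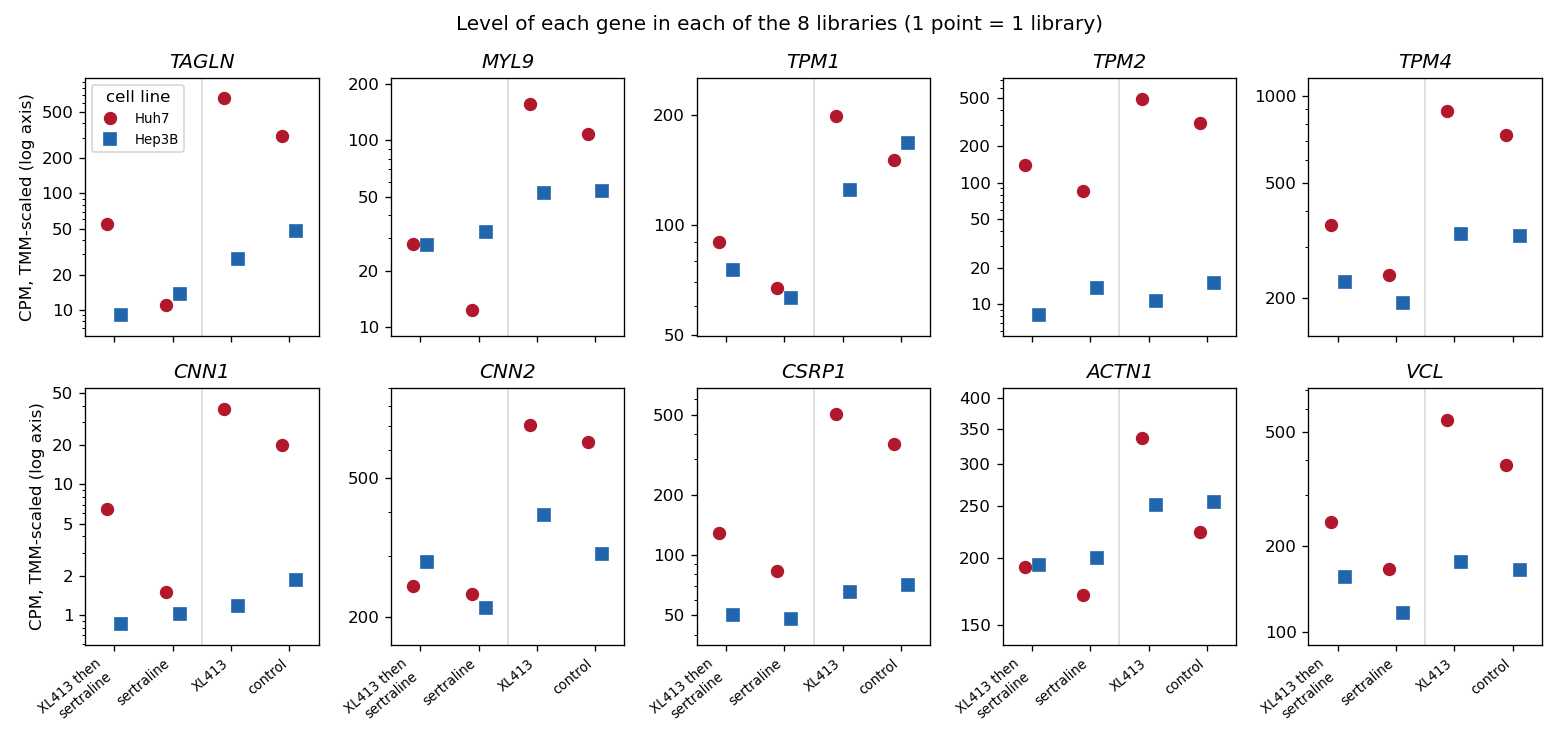
Level of each of the 10 genes in each of the 8 libraries, in TMM-scaled CPM on a log axis, with 1 point per library (circles Huh7, squares Hep3B) and the treatments along the x axis. TAGLN in Huh7 spans 11.1 to 655 CPM, and TPM2 and CSRP1 are higher in every Huh7 library than in every Hep3B library.

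Sertraline over control is the contrast by which the genes had been chosen, and its ratios inside a line compare 1 library with 1, after 0.5 CPM was added to each, with no replicate check. In Huh7 the log2 ratio of sertraline over control was -4.75 for TAGLN, -3.35 for CNN1, -3.08 for MYL9, -2.09 for CSRP1 and -1.86 for TPM2. The remaining log2 ratios in Huh7 lay between -1.61 for TPM4 and -0.39 for ACTN1. In Hep3B the log2 ratio was -1.77 for TAGLN, -1.40 for TPM1, -0.77 for TPM4, -0.74 for MYL9 and -0.14 for TPM2, and the others lay between -0.63 and -0.35. The median log2 ratio over the 10 genes was -1.73 in Huh7 and -0.59 in Hep3B, and over all genes tested it was 0.01 in Huh7 and 0 in Hep3B. For 9 genes, all but TPM1, the ratio was more negative in Huh7, a pattern shown by 29% of all genes tested. ACTN1 differed little, at -0.39 in Huh7 and -0.35 in Hep3B. The members nearest to a ratio of no change were ACTN1 in Huh7 and TPM2 in Hep3B.

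In cells pretreated with XL413, the log2 ratio of XL413 then sertraline over XL413 was -3.56 for TAGLN, -2.47 for MYL9, -2.45 for CNN1, -1.96 for CSRP1 and -1.80 for TPM2 in Huh7. In Hep3B it was -1.55 for TAGLN, -0.92 for MYL9, -0.31 for CNN1, -0.38 for CSRP1 and -0.37 for TPM2. The median over the 10 genes was -1.66 in Huh7 and -0.41 in Hep3B, and the ratio was more negative in Huh7 for 10 of 10 genes, against 36.4% of all genes tested. Both libraries with sertraline lay below both libraries without it in each line for 9 of the 10 genes, TPM2 being the exception, and for 12.3% of all genes tested. Since sertraline values chose the genes, nothing is read from these counts. The library given both drugs also stayed below the control for all 10 genes in each line, with a median log2 ratio of -1.25 in Huh7 and -0.66 in Hep3B.

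**Figure D2:**
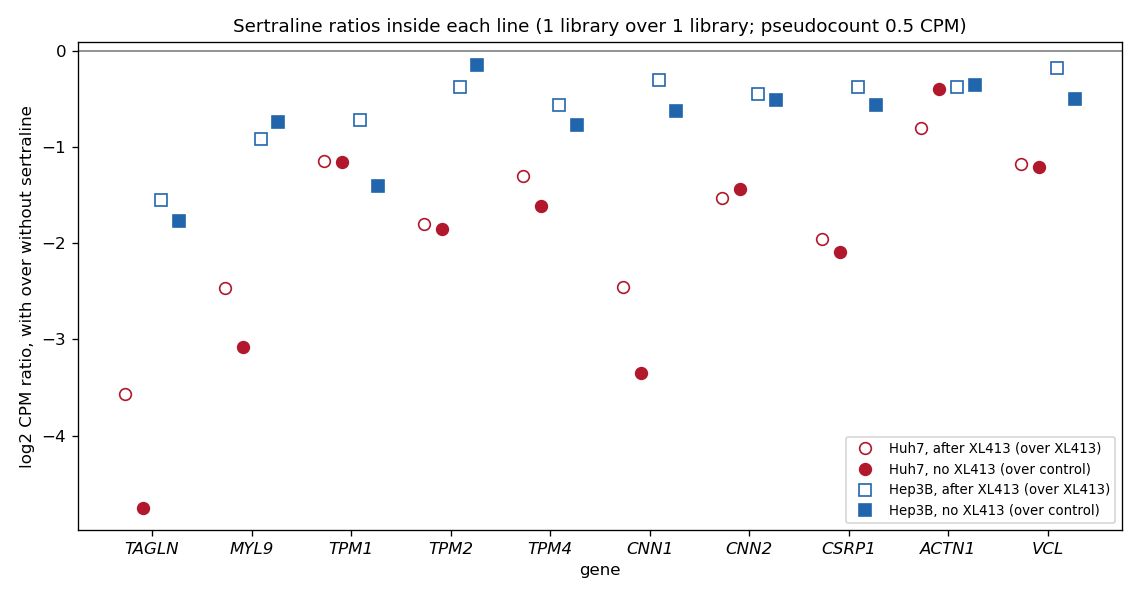
Log2 ratios of sertraline over no sertraline for each gene, in cells without and with XL413 pretreatment, from 1 library over 1 with 0.5 CPM added, for Huh7 and Hep3B. TAGLN has the most negative ratio in Huh7, at -4.75 without and -3.56 with pretreatment.

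The XL413 contrasts were not the measure by which the genes were chosen, and they were tested. They draw on the sertraline libraries too, and the genes were picked with earlier results of these data known, so the tests are not fully independent of the choice. Averaged over the lines, XL413 against control called none of the 10 genes at an adjusted p of 0.05 (edgeR quasi-likelihood test, Benjamini-Hochberg adjustment over 16972 genes) and 0% of all genes tested, with a smallest adjusted p of 0.053 over all genes. None of the 10 had an unadjusted p under 0.05, against 1828 of all genes tested, and their median log2 change was 0.28, against 0.01 over all genes. DESeq2 called 203 genes in this contrast. The interaction of the drugs, which asks whether the sertraline change differed after pretreatment, called none of the 10 and 0% of all genes by edgeR, with unadjusted p under 0.05 for none of the 10 and for 140 of all genes, and the median of the 10 was 0.02. In both tests the spread includes the difference between the lines in the sertraline change, by which the genes were chosen. For TAGLN the SE was 0.80 in XL413 against control and 1.16 in the interaction. The lack of calls among the 10 therefore cannot show that they did not change.

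Inside the lines, ratios of XL413 over control, from 1 library over 1, had different signs. XL413 over control was above 0 in Huh7 for 10 of 10 genes, with a median log2 ratio of 0.53, and in Hep3B for 3, with a median of -0.08. The pattern of higher in Huh7 and lower in Hep3B held for 7 of the 10 genes and for 18.6% of all genes tested. With sertraline present, XL413 then sertraline over sertraline was again above 0 for 10 of 10 genes in Huh7, with a median log2 ratio of 0.60, and for 5 in Hep3B, with a median of 0.01. The opposite pattern between lines then held for 5 of the 10 genes, against 19.9% of all genes. The pair with and the pair without sertraline share no library.

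The XL413 effect in each line and its difference between lines were tested with a term for each drug in each line over 8 libraries. The spread comes from the departure of the drugs from additive effects inside a line, not from repeated cultures. With 2 residual degrees of freedom, edgeR draws each gene's spread toward that of all genes, so SE and p rest largely on other genes. For TAGLN in Huh7 the log2 ratio for XL413 was 1.06 without and 2.25 with sertraline, and DESeq2 gave an adjusted p of 0.00224. In Huh7, 9 of the 10 genes rose with XL413 and none fell, against a background of 11.6% of all genes called higher, 8.99% called lower and 20.5% called in either direction. TAGLN rose by 1.59 ± 0.17 on the log2 scale (SE, edgeR adjusted p = 1.88e-06), CNN1 by 1.28 ± 0.19 (adjusted p = 5.23e-05) and MYL9 by 0.82 ± 0.12 (adjusted p = 8.65e-05). The rises of TPM2, CSRP1, VCL, TPM4, TPM1 and ACTN1 lay between 0.68 ± 0.10 and 0.38 ± 0.11. CNN2 had 0.12 ± 0.10 (adjusted p = 0.43) and was not called. The sizes depended on single Huh7 libraries: TAGLN was at 1.06 without the library given both drugs or the sertraline library and at 2.30 without the control or the XL413 library, and CNN1 was at 0.92 and at 2.11 in the same cases. MYL9 was at 0.54 without the Huh7 sertraline library (adjusted p = 0.0353) or the Huh7 library given both drugs (adjusted p = 0.0372). Some calls rested on single libraries too. TPM1 (adjusted p = 0.247), TPM4 (adjusted p = 0.414), CSRP1 (adjusted p = 0.0571) and VCL (adjusted p = 0.0574) were not called without the Huh7 library given both drugs, and the same 4 were not called without the Huh7 sertraline library (0.242, 0.414, 0.0546 and 0.0546). DESeq2 did not call TPM1 in Huh7 (adjusted p = 0.0563). TPM1 and ACTN1 were not called without the Huh7 control (adjusted p = 0.167 and 0.552) or without the Huh7 XL413 library (0.158 and 0.544).

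In Hep3B, 1 of the 10 genes rose with XL413 and 2 fell, against 8.84% of all genes called higher and 8.21% called lower. CNN2 rose by 0.40 ± 0.10 (edgeR adjusted p = 0.00838). TAGLN fell by 0.73 ± 0.19 (adjusted p = 0.0101) and TPM2 fell by 0.61 ± 0.12 (adjusted p = 0.00129). DESeq2 did not call TAGLN in Hep3B (adjusted p = 0.336), and CNN2 was not called without the Hep3B sertraline library (adjusted p = 0.0743) or the Hep3B library given both drugs (adjusted p = 0.071). TPM1 was called lower without either of these libraries, at -0.43, and VCL was called higher at 0.43 without the Hep3B control and at 0.41 without the Hep3B XL413 library.

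The XL413 effect in Huh7 minus that in Hep3B was called above 0 for 5 of the 10 genes and below 0 for none, against 4.96% of all genes called above 0 and 8.9% in either direction. The difference was 2.32 ± 0.25 for TAGLN (log2, SE, edgeR adjusted p = 8.78e-06), 1.29 ± 0.15 for TPM2 (adjusted p = 1.95e-05), 0.95 ± 0.17 for MYL9 (adjusted p = 0.0014), 1.74 ± 0.38 for CNN1 (adjusted p = 0.0057) and 0.59 ± 0.14 for CSRP1 (adjusted p = 0.0101). TPM1 at 0.50 ± 0.17 (adjusted p = 0.0725) and ACTN1 at 0.41 ± 0.15 (adjusted p = 0.0927) missed the threshold, as did TPM4 at 0.30 ± 0.15, VCL at 0.28 ± 0.14 and CNN2 at -0.28 ± 0.14. Without the Huh7 library given both drugs, MYL9 (adjusted p = 0.0509) and CSRP1 (adjusted p = 0.157) were not called. CSRP1 was also not called without the Huh7 sertraline library (adjusted p = 0.155) or the Hep3B control (adjusted p = 0.0662). TPM1 was called at 0.83 when either the sertraline or the both-drug library of Hep3B was left out, and at 0.53 with a stricter filter on low counts.

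**Figure D3:**
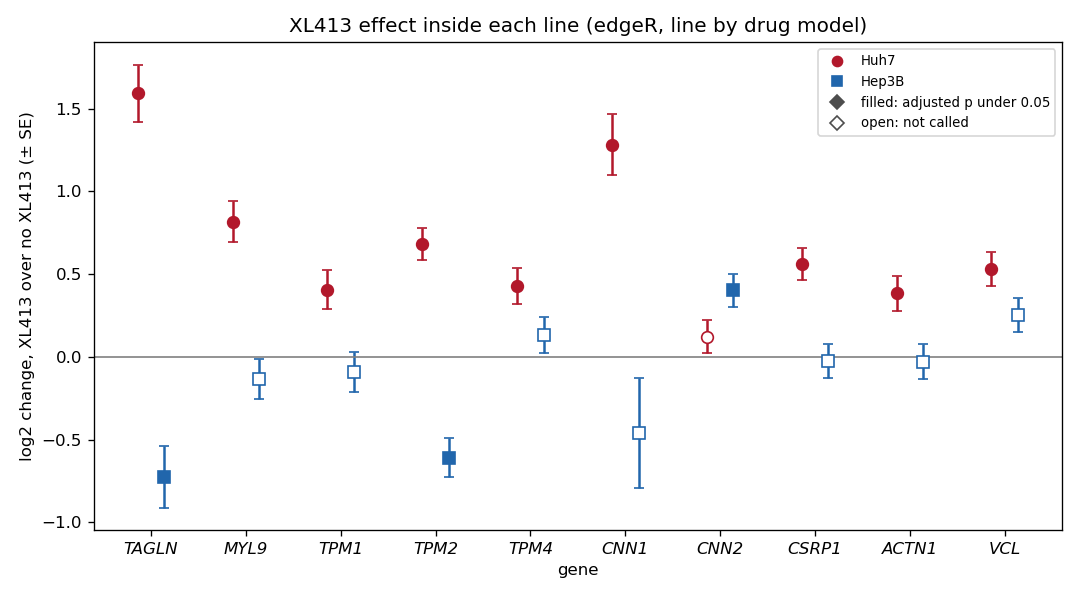
XL413 effect on each gene in Huh7 and in Hep3B, as log2 change with its standard error, from the fit of each drug in each line over 8 libraries. The effect lies above 0 in Huh7 for each of the 10 genes, from 0.12 for CNN2 to 1.59 for TAGLN, and in Hep3B it runs from -0.73 for TAGLN to 0.40 for CNN2.

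Over all 4 treatments, 6 of the 10 genes were called higher in Huh7 than in Hep3B and none lower, against 31.4% of all genes called higher and 62.7% in either direction. The log2 difference was 4.18 ± 0.40 for TPM2 (SE, edgeR adjusted p = 4.27e-05), 3.17 ± 0.56 for CNN1 (adjusted p = 0.00124), 2.52 ± 0.67 for TAGLN (adjusted p = 0.0101), 1.86 ± 0.31 for CSRP1, 1.003 ± 0.18 for VCL and 0.89 ± 0.17 for TPM4. After sertraline alone, however, TAGLN was lower in Huh7, at 11.1 CPM against 13.7 CPM in Hep3B. CNN2 at 0.45 ± 0.20 (adjusted p = 0.0775), MYL9 at 0.36 ± 0.41 (adjusted p = 0.464) and TPM1 at 0.21 ± 0.13 (adjusted p = 0.182) were not called. ACTN1 had a difference of -0.00 ± 0.12 (adjusted p = 0.979), whose sign changed with the scaling. All 4 Huh7 libraries lay above all 4 Hep3B libraries for 2 of the 10 genes, TPM2 and CSRP1, against 24.2% of all genes. Leaving out 1 library changed some of these: MYL9 was called at 0.89 without the Huh7 sertraline library (adjusted p = 0.0151) and at 0.88 without the Hep3B one (adjusted p = 0.0149), and CNN2 at 0.68 without either library given both drugs. CNN2 was also called by DESeq2 (adjusted p = 0.0493) and with no filter on low counts (adjusted p = 0.0098). Each line is 1 cell line, and p measures only how far the difference between the lines varied from treatment to treatment. That spread includes the line difference in the sertraline change, by which the genes were chosen.

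Levels were compared between genes per length, as CPM per kilobase of the union of a gene's exons in GENCODE. CNN2 was highest in both lines, with 124 ± 68.6 CPM per kilobase in Huh7 and 81.9 ± 20.2 CPM per kilobase in Hep3B (mean ± SD over 4 treatments). CNN1 was lowest in both, with 5.69 ± 5.62 CPM per kilobase in Huh7 and 0.424 ± 0.150 in Hep3B. In Huh7 the order after CNN2 was TPM2 at 79.5 ± 56.5, TAGLN at 66.0 ± 75.5, TPM4 at 64.3 ± 35.4, VCL at 33.6 ± 16.8, MYL9 at 27.1 ± 24.2, CSRP1 at 26.0 ± 19.1, ACTN1 at 21.7 ± 6.92 and TPM1 at 9.84 ± 4.62 CPM per kilobase. Neighbours in the Huh7 order differed by less than the larger of their SDs, except ACTN1 and TPM1. In Hep3B the order after CNN2 was TPM4 at 31.3 ± 8.27, ACTN1 at 21.2 ± 3.06, VCL at 15.3 ± 2.58, MYL9 at 14.7 ± 4.82, TPM1 at 8.39 ± 3.74, TAGLN at 6.23 ± 4.46, CSRP1 at 5.70 ± 1.10, TPM2 at 3.63 ± 0.929 and CNN1. These orders are of means over the treatments, and the order of single libraries differed. In the sertraline library of Huh7, TPM4 had 27.8, TPM2 26.5 and TAGLN 2.84 CPM per kilobase, and in the XL413 library of Huh7, TAGLN had 167 and TPM2 152 CPM per kilobase. In Hep3B the steps from CNN2 to TPM4, from TPM4 to ACTN1, from ACTN1 to VCL, from MYL9 to TPM1, from CSRP1 to TPM2 and from TPM2 to CNN1 were larger than the larger SD of each pair.

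Correlations between the genes were taken across the libraries of each line. Over the 4 libraries of a line, the 45 pairs of genes correlated in log2 CPM with a median r of 0.99 in Huh7, from 0.857 to 0.9999, and with a median r of 0.83 in Hep3B, from -0.28 to 0.99. Each r rests on 4 libraries whose main contrast is sertraline, by which the genes were chosen. High r among them was thus largely set by the choice, and it is given as a description. No r of other gene pairs is set beside it, and the values below rest on the same pattern. With values centred within each line, r with the mean of the other members over the 8 libraries was highest for MYL9, at 0.994, and lowest for TPM1, at 0.890. Among 10130 other genes compared in the same way, the closest to the mean of the members were ARPC5, a subunit of the Arp2/3 complex that branches actin filaments, at r = 0.999, and MYL12A, a myosin regulatory light chain, at r = 0.994. They were followed by HEG1, a transmembrane protein of cell junctions, at 0.992, PIP5K1A, a kinase that makes the membrane lipid PIP2, at 0.990, and SYNPO, synaptopodin, an actin-binding protein, at 0.989. ARPC5 had 101 CPM after XL413 then sertraline, 79.0 CPM after sertraline, 178 CPM after XL413 and 150 CPM in the control of Huh7, and 134, 131, 157 and 171 CPM in the same order in Hep3B.

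SRF and the MRTF genes showed no called change with sertraline, averaged over the lines or between them. SRF had 60.6 CPM after XL413 then sertraline, 66.7 CPM after sertraline, 72.6 CPM after XL413 and 67.1 CPM in the control of Huh7, and 65.2, 79.4, 57.5 and 59.7 CPM in the same order in Hep3B. Averaged over the lines, sertraline against control gave a log2 change of 0.21 for SRF (edgeR adjusted p = 0.483). It gave 0.09 for MKL1 (adjusted p = 0.755) and 0.12 for MKL2 (adjusted p = 0.615), the older symbols of the MRTF genes. The sertraline effect in Huh7 minus that in Hep3B was -0.43 ± 0.14 for SRF (edgeR adjusted p = 0.1). It was -0.24 for MKL1 (adjusted p = 0.427) and -0.06 for MKL2 (adjusted p = 0.887). FHL2, listed here with these genes, was called in this difference at -1.05 ± 0.22 (adjusted p = 0.00798). XL413 against control gave 0.04 for SRF (adjusted p = 0.947), 0.24 for MKL1 (adjusted p = 0.573) and 0.02 for MKL2 (adjusted p = 0.96). A p that misses the threshold does not show that these genes were unchanged, and messenger RNA does not show where the proteins were.

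Related genes were read from 9 lists with 133 entries, of which 119 genes that are not members were tested. The lists hold genes of the actin cytoskeleton, SRF and its partners, immediate early genes and 7 YAP and TEAD targets, pooled in the counts below. In sertraline against control 14 of the 119 fell and none rose, against 1.94% of all genes called lower, 2.96% called higher and 4.9% called in either direction, and 101 had a change below 0, against 48.5% of all genes. Their median log2 change was -0.39. CTGF, a secreted protein and target of YAP, TEAD and SRF, fell by 2.74 ± 0.37 (edgeR adjusted p = 0.00931), with 26.1 CPM after sertraline and 252 CPM in the control of Huh7 and 43.8 CPM after sertraline and 224 CPM in the control of Hep3B. FLNA, filamin A, which crosslinks filaments, fell by 1.38 ± 0.31 (adjusted p = 0.0426), and MYLK, the kinase that phosphorylates myosin light chains, fell by 1.01 ± 0.13 (adjusted p = 0.00851). ACTB, beta-actin, fell by 1.06 ± 0.18 (adjusted p = 0.0163), with 2412 CPM after sertraline and 4598 CPM in the control of Huh7 and 2234 CPM after sertraline and 5117 CPM in the control of Hep3B. TAGLN2, a relative of TAGLN, fell by 0.76 ± 0.16 (adjusted p = 0.0356). In pretreated cells sertraline lowered 4 of the 119 and raised none, against 0.271% of all genes called lower and 0.937% called in either direction, and the 4 were MYLK at -0.95 ± 0.13 (adjusted p = 0.0218), PDLIM1, ANLN and TLN2.

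The change with sertraline in Huh7 minus that in Hep3B was called below 0 for 31 of the 119 and above 0 for none, against 2.57% of all genes called below 0, 1.77% above 0 and 4.34% in either direction. The 9 lists had been put together with earlier results of these data known, and the count is no independent support for the choice of members. MYH9, the heavy chain of non-muscle myosin, had -1.16 ± 0.16 (edgeR adjusted p = 0.000232), with 637 CPM after sertraline and 1326 CPM in the control of Huh7 and 63.4 CPM after sertraline and 54.8 CPM in the control of Hep3B. ZYX, zyxin, and ILK, both of focal adhesions, had -0.96 ± 0.14 and -0.9997 ± 0.13. Of the paralogs of the members, MYL6, ACTN4, MYL12A and CNN3 were called below 0, between -0.69 and -0.49. ACTB, at -0.08 (adjusted p = 0.891), was not called in this difference.

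For the XL413 effect, Huh7 minus Hep3B, 17 of the 119 were called above 0 and 3 below, against 4.96% and 3.94% of all genes. ACTN3, the alpha-actinin of fast muscle fibers, had 3.92 ± 0.40, and FLNC, a muscle filamin, had 1.19 ± 0.14. The immediate early genes FOS and EGR1 had 2.41 ± 0.31 and 1.56 ± 0.17 (edgeR adjusted p = 4.28e-05 and 8.78e-06). SRF controls both with ternary complex factors in place of MRTF. FERMT1, PFN2 and CSRP2 were called below 0. The EGR1 difference came from Hep3B, with 21.0 CPM after XL413 and 73.5 CPM in the control. In Huh7, EGR1 had 20.7 CPM after XL413 and 23.0 CPM in the control. FOS, a scarce gene, had 4.70 CPM after XL413 and 1.95 CPM in the control of Huh7. In Hep3B, FOS had 1.22 CPM after XL413 and 3.48 CPM in the control. Inside Huh7, XL413 raised 37 of the 119 and lowered 3, against 11.6% and 8.99% of all genes. Inside Hep3B it raised 8 and lowered 9 of the 119, against 8.84% and 8.21% of all genes. The Hep3B counts thus lay near the background.

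**Figure D4:**
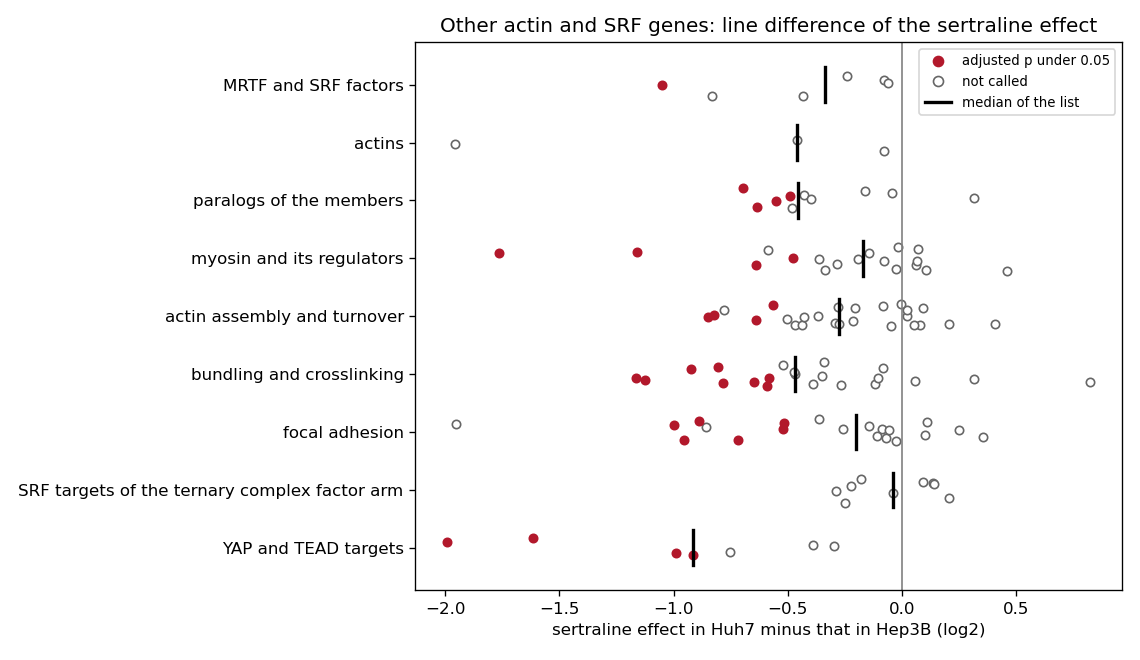
Sertraline effect in Huh7 minus that in Hep3B, on the log2 scale along the x axis, for the genes of the 9 lists down the page, the 10 genes left out, with 1 point per gene, filled where the adjusted p is under 0.05, and a bar at the median of each list. The 31 called genes all lie below 0. The 9 genes listed under the ternary complex factor arm of SRF lie around 0 with none called. They include the factors ELK1, ELK3 and ELK4 themselves.

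Markers of other cell types moved with some of these values. The 6 fibroblast and stellate cell markers summed to 140 CPM after XL413 then sertraline, 59.1 CPM after sertraline, 251 CPM after XL413 and 139 CPM in the control of Huh7. In Hep3B they summed to 38.1, 53.2, 47.7 and 51.5 CPM in the same order. Most of the Huh7 sum was COL1A2, a collagen chain, at 30.4 to 182 CPM, while DCN, decorin, stayed at or under 0.105 CPM in every library. Of the smooth muscle markers, SMTN had between 80.7 and 216 CPM in Huh7 and between 78.9 and 118 CPM in Hep3B. Endothelial markers summed to at most 6.62 CPM and immune markers to at most 4.29 CPM in any library. The part of these levels in the values of the 10 genes was not tested.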

How the data were processed

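The deposited values are whole-number read counts per Ensembl gene for 8 libraries, which the authors did not normalize, per the file headers and values. The submitters' processing notes name HISAT2, HTSeq and the build GRCh38 (hg38). The sources used here give no versions, annotation release or strand setting. The table held 0 columns of other samples. Members and gene lists were chosen with earlier results of these data known.

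Counts were analysed in R 4.3.3 with edgeR 4.0.16 (filterByExpr on treatments, TMM, glmQLFit, glmQLFTest), with Benjamini-Hochberg adjustment over 16972 genes and a threshold of 0.05. Treatments and lines were compared in a model of line plus treatment with 3 residual degrees of freedom. Differences between lines in a drug effect, and XL413 effects inside a line, which were added after the data had been seen, used a model of line by XL413 plus line by sertraline with 2. The cell line is a block, since its 4 libraries come from 1 line. Deviations of libraries of a line from treatment means correlated with r of 0.888 to 0.942. With 1 library per line in each treatment, these deviations are set by the difference between the lines. This r therefore cannot show whether the libraries of a line shared a culture. Standard errors are the log2 change over the square root of F. Ratios of 1 library over 1 use a pseudocount of 0.5 CPM. P-values measure the spread between these libraries, not between cultures.

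All members are named. From each list at most 4 genes are named per comparison, those with the smallest p where any was called and otherwise those with the highest mean CPM. Genes of similar pattern had an average log2 CPM of at least 3. Genes per length used exon unions of GENCODE, whose release may differ from the one counted with. Alternatives were DESeq2 1.42.0 and its size factors, limma 3.58.1 voom, no filter and a stricter filter of 1 CPM, no cell line, treatment left out, each library left out, a pseudocount of 2 CPM and 1 motif mismatch. The procedure was tested on simulated data with 200 changed genes. In the XL413 difference between lines, 99 of 100 genes changed by 1 log2 unit and 98 of 100 changed by 2 were recovered. There 12 of 209 calls were false. Sertraline against control recovered 93 and 100 of 100 with 21 false calls among 214. XL413 against control recovered 95 and 100 of 100 with 18 false calls among 213. Changes were planted only among genes with higher counts, and counts were drawn from the fitted model itself. Depth, 20275392 to 30842770 reads, bounds the precision, most of all for scarce genes. Figures were drawn with matplotlib 3.10.9.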

Additional observations from a re-analysis of the deposited data

Results flagged for a closer look

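The XL413 effect differed between the lines, by the test of the difference itself, for 5 of the 10 genes, against 8.9% of all genes called in either direction and 4.96% called above 0. In log2 units, Huh7 minus Hep3B, the difference was 2.32 for TAGLN, 1.74 for CNN1, 1.29 for TPM2, 0.95 for MYL9 and 0.59 for CSRP1, with edgeR adjusted p between 8.78e-06 for TAGLN and 0.0101 for CSRP1. Without the Huh7 library given both drugs, MYL9 (edgeR adjusted p = 0.0509) and CSRP1 (0.157) were not called, CSRP1 was also not called without the Huh7 sertraline library (0.155) or the Hep3B control (0.0662), and 3 to 6 of the 10 genes were called as each library was left out. CNN1 rests on 25 to 52 reads per library in Hep3B. For TAGLN and TPM2 the effect was called in each line and had opposite signs, at 1.59 in Huh7 and -0.73 in Hep3B for TAGLN and at 0.68 in Huh7 and -0.61 in Hep3B for TPM2. DESeq2 did not call TAGLN in Hep3B (adjusted p = 0.336). No treatment was repeated inside a line, so a difference between the lines and a difference between single cultures cannot be told apart.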

How the results depend on the processing

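Counts of called genes depended on the tool and the filter. With no filter on low counts, XL413 against control called 238 genes, sertraline against control 1585 and sertraline in pretreated cells 830. DESeq2 called 203, 1611 and 810 in the same contrasts, 746 and 382 for the line differences of the XL413 and sertraline effects, and 1696 and 1402 for XL413 inside Huh7 and Hep3B. With no replicate block, that is with the cell line left out of the model, sertraline called 0 genes without and 0 with pretreatment, against 831 and 159. Leaving out each library in turn gave 0 to 3 genes for XL413 against control, 89 to 682 for sertraline against control, 2 to 302 for sertraline in pretreated cells, 496 to 1899 and 210 to 1738 for the line differences of XL413 and sertraline, 870 to 4919 and 2294 to 2450 for XL413 inside Huh7 and Hep3B, 9551 to 10111 for Huh7 against Hep3B, and 0 for the interaction. Of the 10 genes it called 3 to 6 in the line difference of XL413, 5 to 9 for XL413 in Huh7, 3 to 4 in Hep3B and 6 to 7 between lines.

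The difference of ACTN1 between Huh7 and Hep3B turned to 0.00762 with DESeq2 size factors, 0.00756 with DESeq2, 0.019 with the stricter filter and 0.0346 without treatment, and ran from -0.149 to 0.0698 with 1 library left out. On leaving out libraries, MYL9 between lines ran from -0.0821 to 0.887, and XL413 in Hep3B ran from -0.43 to 0.27 for TPM1 and from -0.119 to 0.0829 for CSRP1. The cause was not tested. The stricter filter removed CNN1. With 1 mismatch, the CArG box was found in 5 promoters of the genes in place of 3. With a pseudocount of 2 CPM, the log2 ratio of sertraline over control in Huh7 was -4.58 for TAGLN and -2.64 for CNN1. Counting each value of a single gene once per alternative, the motif count included, 575 kept their direction and side of the threshold, 13 passed it newly, 20 lost it, 14 turned and 5 without a test moved. Few reads limit CNN1 in Hep3B, and 1 library per line and treatment limits every result.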
